A study of Mus musculus with 786 samples.

Results

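The cells described here are single haematopoietic stem cells (HSC) of mouse bone marrow, sorted from C57BL/6 mice aged 6 to 8 weeks as CD48-, CD150+, CD135- and CD34-. Members were the HSC wells whose label gives a cell count of 1 and in which at least 1000 genes reached 1 FPKM (fragments scaled to transcript length and library size). This left 176 cells of the 221 HSC wells labelled with 1 cell, and the whole series holds 460 wells so labelled. The cells fell on 3 plates of 96 wells, numbered by the labels as biological replicates, with 50 cells on plate 1, 53 on plate 2 and 73 on plate 3. The same plates held 21, 12 and 11 wells labelled with no cell, which served as the background; what else these wells may have held is not given. Plates 1 and 2 were made by Smart-seq, a full-length cDNA amplification from 1 cell, and stand in the same table. Plate 3 stands in a table of its own, its notes name the C1 Fluidigm instrument and an RNA spike-in, and its growth note mentions normal as well as bled mice. Its wells are labelled HSC, apart from another plate labelled bled HSC, and were taken as normal on that label alone, so an effect of bleeding on plate 3 cannot be told apart from its other differences. The labels do not tell if 1 mouse or a pool of mice filled a plate, so the spread between plates may be technical in part.

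HSC are rare, mostly resting cells that renew themselves and give rise to all blood lineages. Their state is held by transcription factors such as Hlf, Mecom and Meis1, by signals from niche ligands through Kit and Tek, and by inhibitors of the cell cycle. Populations sorted by surface markers are known to be mixed in lineage bias and in cycling, which is the question that a within-plate comparison of single cells addresses.

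Cells of the 3 plates held a median of 2158, 2594 and 1969 genes at 1 FPKM or more, with ranges of 1029 to 3416, 1376 to 4498 and 1052 to 3040 genes. No-cell wells held medians of 841, 148 and 288 genes, and 7 of the 21 no-cell wells of plate 1 held 1000 genes or more, so that plate's background was the highest. Read depth is unknown, since the files give no counts. The summed FPKM had medians of 286197, 235113 and 210791 per cell. In 4 cells it stayed under 50000 (46659 in 1 cell of plate 1, and 27547, 11081 and 10494 in 3 cells of plate 2), and these cells stood apart. Pairs of cells of the same plate correlated with medians of 0.402, 0.417 and 0.352, and no 2 wells held identical values. Markers of B cells, T and NK cells, neutrophils, macrophages, mast cells and basophils, and endothelium and stroma had a median summed level of 0 FPKM in each plate. No cell held 3 or more genes of the 5 blood lists, and 2 cells held 3 endothelial or stromal genes. Cd3e and Ltf were detected in no cell.

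The label was checked first against the 5 HSC markers. All 176 cells held at least 1 marker at 1 FPKM or more, and 47 of 50, 49 of 53 and 63 of 73 cells held at least 2 (94%, 92.5% and 86.3%), against 14 of 21, 0 of 12 and 2 of 11 no-cell wells (66.7%, 0% and 18.2%). Cells with all 5 markers numbered 2, 2 and 1. The most frequent number was 3 markers on plates 1 and 2 (21 and 20 cells) and 2 markers on plate 3 (28 cells).

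Meis1, a homeobox partner of Hox proteins needed for HSC maintenance, was the most widely detected marker. It reached 1 FPKM in 49 of 50, 51 of 53 and 64 of 73 cells, 94.0% ± 5.52 (SD, n = 3 plates), against 48.6% ± 23.9 of no-cell wells. Over all cells its level ran from 0.158 to 1063 FPKM with a median of 157 on plate 1, from 0 to 1182 with a median of 240 on plate 2 and from 0 to 1232 with a median of 127 on plate 3. The upper ends of the 3 plates lay close together, and a few cells of every plate were at or near 0.

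Hlf, a PAR bZIP transcription factor of the HSC state, was detected in 43, 43 and 60 cells, 83.1% ± 2.56, against 29.7% ± 31.0 of no-cell wells. Its median over all cells was 32.1, 30.2 and 34.4 FPKM, and its highest level 307, 280 and 478 FPKM. This was the marker with the most even share over plates except Fgd5.

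Mecom, the zinc-finger factor also called Evi1, was detected in 31, 30 and 31 cells, 53.7% ± 10.1, against 12.7% ± 22.0 of no-cell wells. In the cells that held it the median level was 53.4, 15.5 and 24.6 FPKM, and the highest 630, 257 and 680 FPKM. Each plate thus held cells with a Mecom value at 0 or near it and cells spread over a wide range of levels. A value of 0 in the single library of a cell does not show that the gene was off.

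Procr, the endothelial protein C receptor used to enrich HSC, was detected in 21, 26 and 19 cells, 42% (exact 95% binomial interval 28.2 to 56.8), 49.1% (35.1 to 63.2) and 26.0% (16.5 to 37.6). The mean was 39.0% ± 11.8, against 3.17% ± 5.50 of no-cell wells. Procr-holding cells had median levels of 49.0, 35.7 and 23.4 FPKM and highest levels of 483, 661 and 558 FPKM. Fgd5, a guanine nucleotide exchange factor whose reporter marks HSC, was detected in only 8, 8 and 9 cells, 14.5% ± 1.91, against 8.98% ± 0.603 of no-cell wells.

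**Figure D1:**
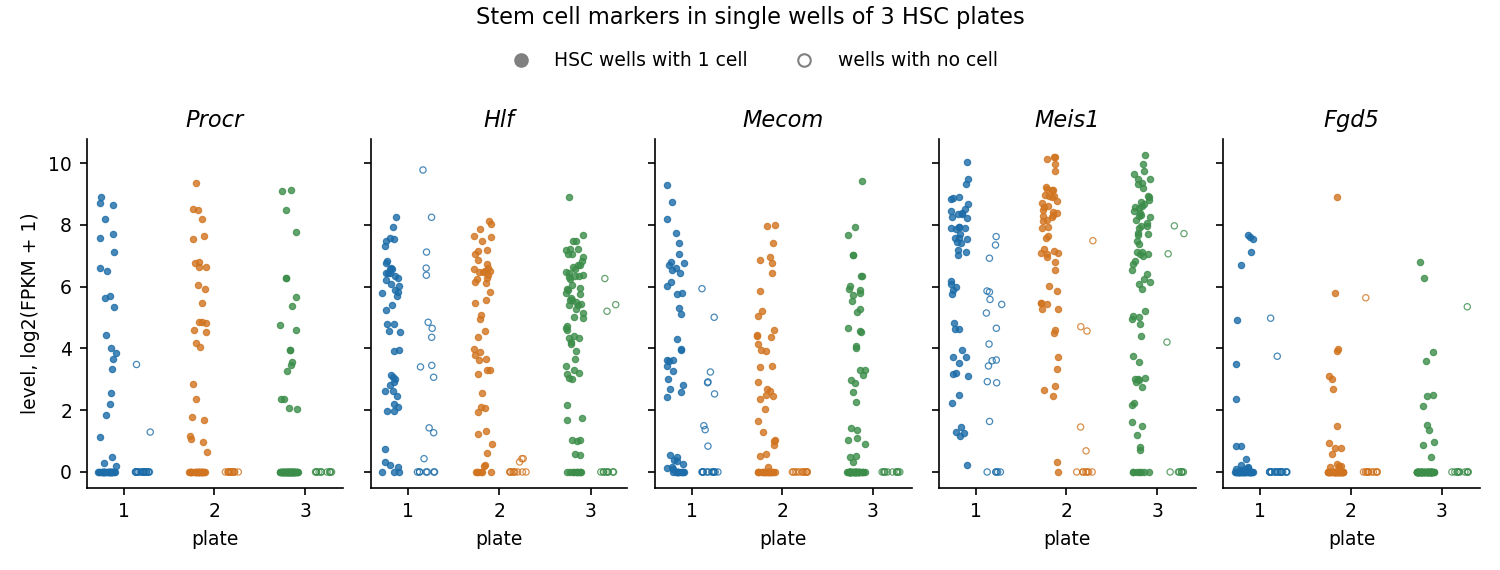
Level of the 5 markers, as log2(FPKM + 1), in each well of the 3 plates; filled points are wells with 1 cell and open points are wells with no cell. Meis1 is above 0 in nearly all cells, while Procr and Mecom are detected in only a part of the cells of each plate. Fgd5 is held by 8, 8 and 9 cells.

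The detection shares of 1-cell wells and no-cell wells were compared gene by gene over the 3 plates of each, with limma on the arcsine square root of the share. Of 7286 genes tested 5965, or 81.9%, were detected in a larger share of 1-cell wells at an adjusted p under 0.05, and 0% in a smaller share, with no gene lower at an unadjusted p under 0.05 either. Without plate 2 the number called was 1902 and without plate 3 it was 2811. Procr was higher in 1-cell wells by 0.57 ± 0.13 (SE) on the arcsine square-root scale (adjusted p = 0.0025, limma), with a larger share on 3 of 3 plates. Mecom (adjusted p = 0.0083, limma), Hlf (0.011) and Meis1 (0.012) also passed, each with a larger share on 3 of 3 plates, and Fgd5 did not (0.446). All 4 calls were lost without plate 2 (adjusted p between 0.095 and 0.191, limma), those of Hlf and Meis1 when mean levels were compared in place of shares (0.239 and 0.106), and those of Hlf, Mecom and Meis1 without plate 3 (0.093 to 0.106). With 81.9% of all genes called, these calls show nothing particular to the markers. The cells had been kept for holding at least 1000 genes, which itself favours larger shares in 1-cell wells. With all 221 wells labelled with 1 cell, an alternative chosen after seeing the data, 4482 of 6620 genes (67.7%) were called higher and 0 lower. Procr (adjusted p = 0.0085, limma), Mecom (0.029) and Hlf (0.049) then passed, and Meis1 did not (0.112).

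Co-detection of markers stayed near the product of their single shares in most pairs. For Hlf and Mecom it was 52%, 45.3% and 35.6%, against products of 53.3%, 45.9% and 34.9%. All 21 Procr cells of plate 1 also held Hlf, a share of 42% against a product of 36.1%, and the share was 45.3% against 39.8% on plate 2 and 23.3% against 21.4% on plate 3. Procr and Fgd5 met in 6 cells of plate 3, 8.22% against a product of 3.21%, while on plates 1 and 2 they met in 4 cells each, 8% against 6.72% and 7.55% against 7.41%. In level, the partial Spearman correlation given the number of genes detected per cell was 0.210, 0.451 and 0.110 for Procr with Hlf. It was -0.071, -0.033 and -0.354 for Procr with Meis1, and between -0.104 and 0.177 for the 4 remaining pairs among Procr, Hlf, Mecom and Meis1. These correlations are descriptions over cells that share a plate, a library preparation and a detection limit.

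The genes whose levels followed each marker most closely were ranked by the lowest of the 3 plates' partial correlations. For Procr they were Tcf7l2, a transcription factor of the Wnt pathway (0.319, 0.256 and 0.237), Jun, an AP-1 subunit (0.237, 0.177 and 0.187), and Calcrl, the calcitonin receptor-like receptor (0.228, 0.2005 and 0.167). Muc13, a mucin, ran the other way (-0.215, -0.299 and -0.302), as did Fbxo46. For Hlf they were the splicing factor gene Srsf2 (0.259, 0.310 and 0.314), Sat1, a polyamine acetyltransferase (0.353, 0.344 and 0.257), and Rbm5, with Nop58 and Psmc2 at the negative end. For Mecom they were Arf6, Pcmtd2 and Akap9, with lowest values of 0.179, 0.178 and 0.170, and Nudt3 and Lnpep at the negative end. For Meis1 they were Dpy30, a subunit of histone H3K4 methyltransferase complexes (0.346, 0.214 and 0.216), and Ybx1, with Nup85 and Vps4b at the negative end. Each was the extreme of 2828 genes, so values of this size are weak, and Fgd5 was held by too few cells to enter.

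The wider HSC program, a list of 38 genes, was represented in every cell. Cells held a median of 16, 19 and 17 of its genes (ranges 10 to 23, 10 to 31 and 7 to 26), against medians of 10, 2 and 4 in no-cell wells, whose highest values were 13, 8 and 9. Of 37 members tested 33 were detected in a larger share of 1-cell wells and 4 were not called (Fgd5, Tek, Clec1a and Vwf), beside the 81.9% of all genes, and 0 were lower. Without plate 2 the 33 became 4, without plate 3 they became 6, for mean levels in place of shares they were 15, and with all 1-cell wells they were 24 of 36.

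Receptors of the program differed widely in how many cells held them. Kit, the stem cell factor receptor, was detected in 87.9% ± 2.63 of cells (SD, n = 3 plates), against 35.1% of no-cell wells. Angpt1, the ligand of Tek, was detected in 90.3% ± 2.23 of cells, and Tek itself in 17.5% ± 3.39. Esam, an adhesion molecule of HSC and endothelium, stood at 38.0% ± 8.63.

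Among transcription regulators, Lmo2 was held by 95.8% ± 2.49 of cells and Gata2 by 74.9% ± 7.71. Nfe2 (69.2% ± 1.06), Mllt3 (66.8% ± 7.41) and Etv6 (63.9% ± 8.87) followed. Runx1 (45.9% ± 12.2), Tal1 (32.8% ± 12.6), Prdm16 (32.2% ± 3.01) and Gfi1b (30.5% ± 4.08) were each held by a minority of cells. Hoxa9 (18.4%) and Hoxb5 (9.50%) were near the lower end, and Tcf15 was in 3.54% of cells and was not tested.

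Surface and membrane genes of the program reached the highest levels. Ifitm3, an interferon-induced transmembrane protein, had medians of 1278, 992 and 695 FPKM. Its range was 2.72 to 5232 FPKM on plate 1, 0 to 7467 on plate 2 and 0 to 3564 on plate 3. Ifitm3 shares transcript sequence with Ifitm7, so its reads may be mixed with those of that gene. Ly6a, which encodes Sca-1, was detected in 36 of 50, 37 of 53 and 32 of 73 cells (72%, 69.8% and 43.8%), against 33.3%, 0% and 9.09% of no-cell wells. Its median over all cells was 139, 98.9 and 0 FPKM, and its highest level 2207, 2682 and 1421 FPKM. Plate 3 held the lowest share of Ly6a cells and also of Procr and Mecom cells, and its cells held the fewest genes by median. Whether depth has a part in these plate differences was not tested.

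Genes of the sort were read beside the gates. Cd48 was detected in 0 of 50, 1 of 53 and 0 of 73 cells, and a count of 0 (limit of 3 counts) allows up to 6% of cells on plate 1 and 4.11% on plate 3 with the gene detected, which sets no limit on cells that express it undetected. Slamf1, which encodes CD150, was detected in 13.3% ± 8.52 of cells, against 1.59% of no-cell wells, and Flt3, which encodes CD135, in 6.97% ± 2.15, against 6.20%. Cd34 RNA was detected in 44.4% ± 11.4 of these CD34- cells, against 13.6% of no-cell wells (adjusted p = 0.025, limma, but 0.067 to 0.139 without plate 2 or plate 3, at 5 FPKM or for mean levels), with median levels of 20.0, 11.7 and 22.8 FPKM in the cells that held it.

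Over all genes, 12673 of the 21664 in the tables were detected in at least 1 cell. Only 134 genes were detected in at least 90% of cells of every plate, 4853 lay between 10% and 90% in every plate, and 1948 were in under 10% of cells of every plate. The 14 genes in every cell were Actb, B2m, Eef1a1, Gm15427, H3f3b, Hsp90ab1, Malat1, Rpl32, Rpl4, Rpl41, Rplp0, Rps6, Rpsa and Ubb. Without the 4 cells of low summed FPKM 20 genes were in every cell and 136 in at least 90%. Frequency and level went together. The median level in the cells that held a gene was 212, 167 and 175 FPKM for genes of the 90% class, 31.3, 23.8 and 27.8 FPKM for genes in 30% to 70% of cells, and 16.6, 13.0 and 15.3 FPKM for genes in under 10%. Shares of cells ranked alike in the 3 plates (Spearman rho across genes 0.894, 0.874 and 0.884, where genes are not independent).

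The spread between cells was measured for the 2828 genes detected in at least 20% of cells of every plate, as the SD of log2(FPKM + 1). Its median was 2.61, 2.51 and 2.53, and it depended on level, so each gene's SD was set against a running median over the genes nearest to it in level. This excess SD ranked genes alike in the plates, with rho of 0.763 for plates 1 and 2, 0.766 for plates 1 and 3 and 0.759 for plates 2 and 3 across genes.

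The 15 genes that led by their worst rank over the plates came from several roles. Cox6a1, a subunit of cytochrome c oxidase, had the most even lead, with excess SDs of 1.46, 1.42 and 1.51. It was at 0 in some cells of every plate and reached 3977, 1670 and 3777 FPKM in others, with medians of 284, 415 and 187 FPKM. Rgs1, a regulator of G-protein signalling, was detected in 44%, 73.6% and 53.4% of cells, against 28.6%, 25% and 9.09% of no-cell wells. The cells that held it had median levels of 587, 169 and 193 FPKM. The first quartile of these cells lay at 258, 33.1 and 38.3 FPKM, so on plates 2 and 3 their levels spread over a wide range.

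Fos, an immediate early gene and AP-1 subunit, had excess SDs of 0.96, 1.05 and 1.49. Its level ran from 0 to 1967 FPKM with a median of 301 on plate 1, from 0 to 1663 with a median of 298 on plate 2 and from 0 to 3289 with a median of 310 on plate 3. Fos was detected in 89.2% ± 4.56 of 1-cell wells, against 54.2% ± 20.2 of no-cell wells (adjusted p = 0.040, limma), a call that was lost with the plate as a block (0.0502), without plate 2 or plate 3 (0.166 and 0.219), with all 1-cell wells (0.179) and for mean levels (0.527). Ly6a had excess SDs of 1.23, 1.15 and 0.64 and was the only HSC program member among the 15.

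The others were Arhgdib, a GDP-dissociation inhibitor of blood cells, Stmn1, a microtubule-destabilising protein of dividing cells, H2afz, a histone variant, Slc25a5, the mitochondrial ADP/ATP carrier, Psmb2, a proteasome subunit, Lgals9, a galectin, Dad1, Cyb5, Hsdl1, 2010107E04Rik and 2410006H16Rik. Stmn1 was detected in 92%, 94.3% and 76.7% of cells, against 76.2%, 41.7% and 18.2% of no-cell wells. H2afz was detected in 90%, 98.1% and 80.8% of cells, against 81.0%, 41.7% and 36.4% of no-cell wells. H2afz reached 8266 FPKM in 1 cell of plate 2.

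The steadiest of the genes in at least 90% of cells of every plate were Gm9104, Rpl21, Notch2, Rps7, Rpl35a, Lars2, Wdr89, Rps27a, Hmg1l1 and Son. They were picked for the lowest values of their highest excess SD over the plates, so their negative excess SDs are built into the choice. The running median also took in genes detected in fewer cells, which the limit of 90% leaves out of this pick. How far that limit alone lowers the excess SD was not tested, so these values do not show steady regulation. Notch2, a Notch receptor, was the only receptor gene of the 10. It had medians of 11.6, 4.39 and 14.8 FPKM and highest levels of 57.1, 34.4 and 130 FPKM, with excess SDs of -2.01, -1.56 and -1.70. Rps7 had excess SDs of -1.80, -1.55 and -2.00. All 10 had medians under 100 FPKM in every plate. Ribosomal protein genes have near-identical processed copies in the mouse genome, so their levels are uncertain wherever reads are shared between copies.

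**Figure D2:**
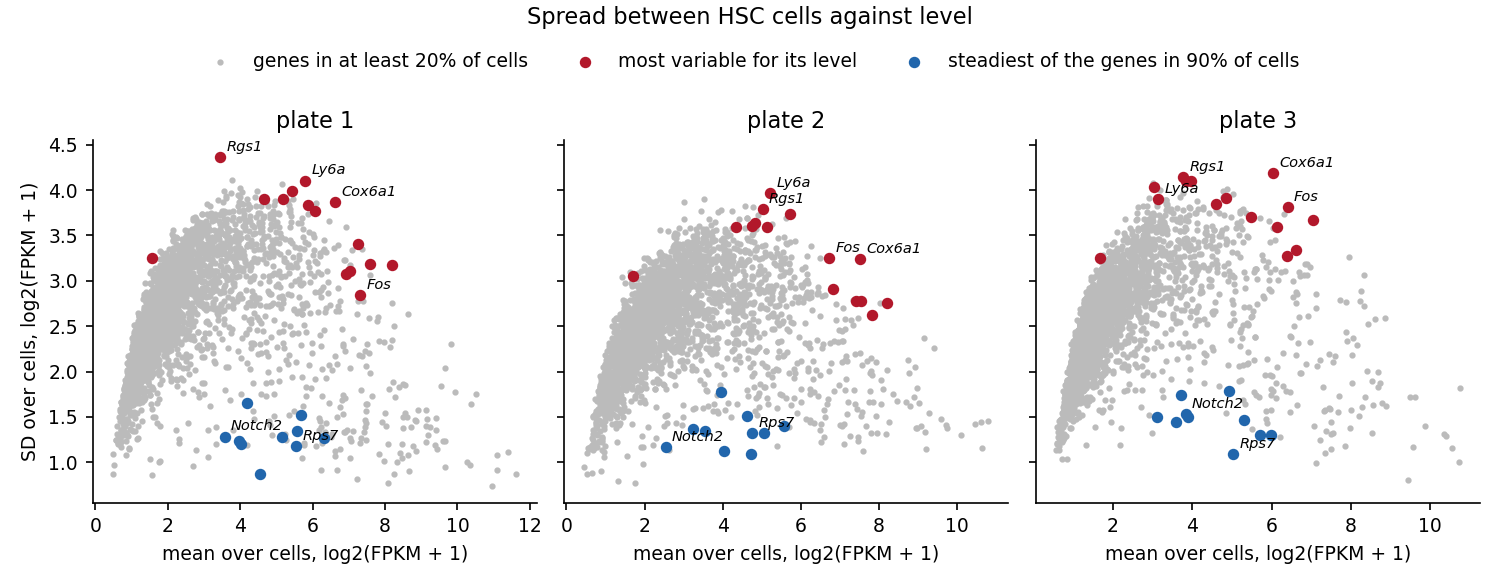
SD over cells against mean over cells, both on the log2(FPKM + 1) scale, for the genes in at least 20% of cells of every plate; red points are the 15 most variable genes for their level and blue points the 10 steadiest of those in 90% of cells. Rgs1, Ly6a, Cox6a1 and Fos lie along the upper edge of all 3 plates, and Notch2 and Rps7 lie along the lower edge. Both coloured sets were picked by their excess SD.

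Programs were then counted per cell as the number of list genes at 1 FPKM or more. G2/M genes, which drive mitosis, were detected singly or not at all in most cells. The median was 1 of 27 genes on each plate, against highest counts of 3, 2 and 1 in no-cell wells. A few cells held nearly the whole list, with highest counts of 25, 26 and 26. Cells with 10 or more G2/M genes numbered 4 of 50, 10 of 53 and 1 of 73, which is 8% (exact 95% binomial interval 2.22 to 19.2), 18.9% (9.44 to 32.0) and 1.37% (0.035 to 7.40). The limit of 10 genes was set after the counts were seen, and 1, 6 and 2 further cells lay at 7 to 9 genes. These intervals cover counting error only.

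The 15 cells with 10 or more G2/M genes kept HSC genes. They held 13 to 25 of the 38 HSC program genes and 2 to 4 of the 5 markers. Between 0 and 21 of the 24 S phase genes were present in them, so some combined both phases and others held mitotic genes almost alone. They held 2000 to 4339 detected genes each, beside plate medians of 2158, 2594 and 1969, and the part of depth in the count was not tested. At a detection limit of 5 FPKM the number was 14 cells. Over genes, Cks2, a cyclin-dependent kinase subunit, was in 26.8% ± 9.19 of cells, Mki67, a marker of cycling cells, in 18.5% ± 13.4 and Top2a, topoisomerase II alpha, in 19.6% ± 7.65. Of 20 G2/M genes tested 14 were called higher than in no-cell wells, a smaller share than the 81.9% of all genes, and Top2a (adjusted p = 0.622, limma) and Mki67 (0.279) were not called. The 14 became 8, 10 and 7 without plates 1, 2 and 3 in turn, and 6 of 13 with all 1-cell wells.

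S phase genes, which load and run DNA replication, were more widely spread. Cells held a median of 3, 7 and 3 of 24 genes and a highest count of 18, 22 and 12, against no-cell medians of 2, 0 and 1 and highest counts of 5, 5 and 2. Cells with 10 or more numbered 7 (14%, interval 5.82 to 26.7), 18 (34.0%, 21.5 to 48.3) and 2 (2.74%, 0.334 to 9.55), while 3, 9 and 9 further cells lay at 7 to 9 genes. Pcna, the replication clamp, was detected in 52%, 77.4% and 50.7% of cells and the helicase subunit genes Mcm6 and Mcm3 in 45.5% ± 13.4 and 41.6% ± 12.4. The share of cells with 10 or more genes was highest on plate 2 and lowest on plate 3 for both phases. Plate 2 also had the highest and plate 3 the lowest median of genes detected per cell (2594 and 1969). The S phase count of a cell correlated with its genes detected at 0.526, 0.576 and 0.508, and the part of depth in the plate differences was not tested. Of 21 S phase genes tested 17 were called higher than in no-cell wells, about the 81.9% of all genes. The number was 3 without plate 2 or without plate 3, and 11 of 18 with all 1-cell wells. The partial correlation between the S phase and G2/M gene counts of a cell was 0.333 on plate 2 and 0.012 and -0.013 on plates 1 and 3.

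Interferon response genes formed another uneven group. Cells held a median of 7, 7 and 4 of 29 genes and at most 23, 25 and 16, against highest counts of 7, 3 and 1 in no-cell wells. Cells with 10 or more numbered 12 (24%, interval 13.1 to 38.2), 19 (35.8%, 23.1 to 50.2) and 3 (4.11%, 0.856 to 11.5), with the limit again set after the counts were seen. It cut a continuous range, since 16, 12 and 11 further cells lay at 7 to 9 genes and 5, 7 and 2 of the counted cells at 10 to 12. At a detection limit of 5 FPKM the numbers were 8, 16 and 3. Trim30a was in 57.3% ± 9.07 of cells, the oligoadenylate synthetase-like gene Oasl2 in 42.4% ± 15.0 and Ifi44 in 40.4% ± 12.5. Of 24 genes tested 17 were called higher than in no-cell wells, a smaller share than the 81.9% of all genes, and Oasl2 (adjusted p = 0.076, limma) was not among them. The 17 became 11, 3 and 7 without plates 1, 2 and 3 in turn, and 8 of 23 with all 1-cell wells.

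**Figure D3:**
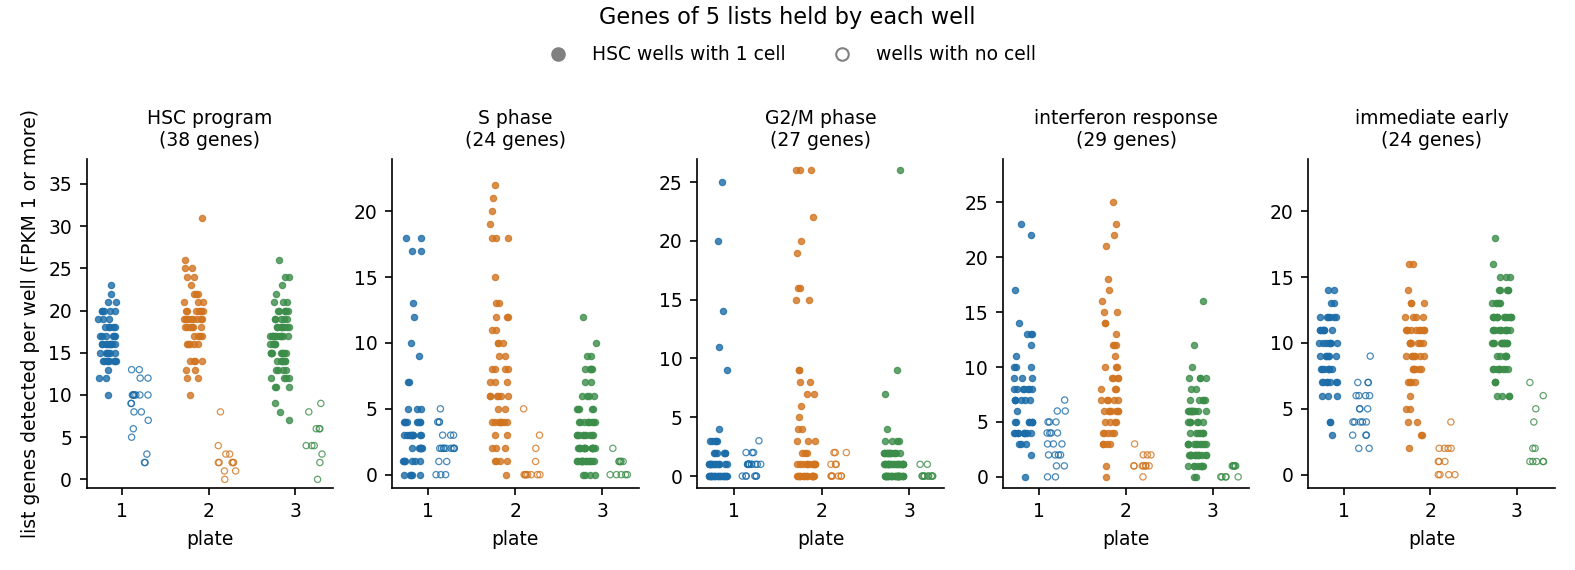
Number of genes at 1 FPKM or more that each well held from 5 lists, by plate; filled points are wells with 1 cell and open points are wells with no cell. G2/M counts are near 0 in most cells, with 4, 10 and 1 cells at 10 or more, while HSC program counts form a single cloud above most no-cell wells.

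Cell cycle inhibitors and regulators of quiescence differed widely in how many cells held them. Cells held a median of 5 of the 15 genes on each plate, against medians of 3, 0 and 1 in no-cell wells. The median member was in 16%, 22.6% and 11.0% of cells, and 6 of the 15 were in at least 20% of cells of every plate. Of the members detected most widely, Txnip, an inhibitor of thioredoxin, was detected in 93.2% ± 1.17 of cells, Egr1 in 79.9% ± 5.60, Btg1, an antiproliferative factor, in 79.3% ± 2.88 and Cdkn1b, the inhibitor p27, in 60.2% ± 5.52. All 11 tested members of the 15 were called higher than in no-cell wells, beside 81.9% of all genes, and 2 and 4 without plates 2 and 3 and 6 with all 1-cell wells. Immediate early genes were also broad, and cells held a median of 9, 10 and 11 of 24. No-cell wells had medians of 5, 1 and 2 and highest counts of 9, 4 and 7. Dusp1 was in 86.8% ± 0.836, Jun in 86.7% ± 4.87 and Zfp36 in 85.5% ± 1.91 of cells. Of 19 tested 17 were called, beside the same 81.9%, and 5 and 8 without plates 2 and 3. Klf6 was in 81.2% ± 12.9 of cells and in 67.2% ± 36.6 of no-cell wells (adjusted p = 0.481, limma). The per-cell gene counts of the quiescence and immediate early lists, after removal of the genes they share (Egr1 and Btg2), had partial correlations of 0.339, 0.145 and 0.414. Hes1, a Notch target picked out after its values were seen, was in 3 of 50 and 6 of 53 cells of plates 1 and 2 but in 51 of 73 cells of plate 3 (69.9%, interval 58.0 to 80.1). Plate 3 also stands in a table of its own, and its notes name an instrument, an RNA spike-in and bled as well as normal mice. The parts of these in the difference cannot be told apart.

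Genes of mature lineages were detected a few at a time. Megakaryocyte genes other than Nfe2 included Fli1, an Ets factor (84.7% ± 4.63), Mmrn1, multimerin (60.9% ± 11.6), Gp9 (23.7% ± 3.84) and Vwf, von Willebrand factor (17.1% ± 1.54, against 7.65% of no-cell wells, adjusted p = 0.131, limma). The median count was 3.5, 5 and 4 of 21 genes. No-cell wells had medians of 2, 0 and 2 and highest counts of 3, 3 and 4. The count reached 10 or more in 3 cells, 1 on plate 1 and 2 on plate 2. Those 3 cells held 12 or more S phase genes each and 15 to 21 HSC program genes. They also held 3111, 4339 and 3658 detected genes, beside plate medians of 2158 and 2594. The part of depth in these counts was not tested.

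Of the granulocyte and monocyte list, Lyz2, lysozyme, was in 57.4% ± 14.3 of cells and Prtn3, proteinase 3, in 55.8% ± 7.58, against 14.1% and 4.76% of no-cell wells. Lyz2 shares transcript sequence with Lyz1, so its reads may be mixed with those of that gene. No cell held more than 6 of the 20 genes. Of the lymphoid list, Il2rg, the common cytokine receptor chain, was in 59.7% ± 16.1, Bcl11a in 37.3% ± 2.76 and Ikzf1 in 31.3% ± 7.92 of cells, with at most 6 of 15 genes in a cell. Of the erythroid list, Car2, carbonic anhydrase 2, was in 97.5% ± 2.78 of cells with medians of 1315, 809 and 600 FPKM, but it was also in 67.9% ± 28.5 of no-cell wells and was not called (adjusted p = 0.111, limma). Gata1 was in 6.23% and Hbb-b1 in 13.9% of cells. Cd74, the MHC class II invariant chain, was in 46% of cells on plate 1 and in 15.1% and 13.7% on plates 2 and 3.

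Lists of housekeeping function were broad. All 26 ribosomal protein genes and all 26 oxidative phosphorylation genes listed were called higher than in no-cell wells, again beside 81.9% of all genes. Without plate 2 these were 15 and 13, and without plate 3 they were 15 and 16. For mean levels in place of shares limma called 0 ribosomal genes (1 at an unadjusted p under 0.05) and 12 oxidative phosphorylation genes. Cells held a median of 26 ribosomal genes on each plate, against 16, 4.5 and 6 in no-cell wells. For oxidative phosphorylation genes the medians were 17, 17 and 13, against 4, 1 and 1. Of the oxidative phosphorylation list, Cox4i1 was in 93.8% ± 4.50 and Uqcrh in 87.1% ± 9.15 of cells. Gapdh, of the glycolysis list, was in 90.3% ± 3.43 of cells.

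The counts of detected genes of different programs in a cell were only loosely related. Of 136 pairs of lists, 21 had a positive partial correlation between their per-cell counts on every plate and 15 a negative one. No pair reached 0.2 or -0.2 on all 3 plates.

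Female and male transcripts were found together in few cells, a pattern picked out after the strongest negative gene pair was seen (Ddx3y with Xist, partial correlation -0.351, -0.673 and -0.392). Xist, the RNA that coats the inactive X chromosome, was detected in 11, 24 and 34 cells (22%, 45.3% and 46.6%), against 19.0%, 25% and 27.3% of no-cell wells. At least 1 of the Y-linked genes Kdm5d, Ddx3y, Uty and Eif2s3y was detected in 30, 24 and 34 cells (60%, 45.3% and 46.6%), against 42.9%, 8.33% and 9.09% of no-cell wells. On plate 1 the Xist share was thus close to that of its no-cell wells. Exactly 1 of these kinds was found in 82%, 83.0% and 76.7% of cells, against 52.4%, 16.7% and 36.4% of no-cell wells. Both were found in 0, 2 and 6 cells, or 0% (a count of 0 allows up to 6%), 3.77% and 8.22%, where the products of the shares were 13.2%, 20.5% and 21.7%. Neither was found in 9, 7 and 11 cells. These shares were not tested against the no-cell wells, and no label names the sex or number of the mice.

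Pairs of genes were then compared over the cells of each plate by partial Spearman correlation given the number of genes detected per cell, for 3997378 pairs among the 2828 genes. The median pair had a correlation of 0.0087, 0.0076 and 0.0035, and 0.0448%, 0.112% and 0.0282% of pairs reached 0.5. Of these, 417 pairs reached 0.5 on both plate 1 and plate 2, and 249 of them, 59.7%, reached it on plate 3 too. Choosing plates 1 and 3 first gave 281 pairs, of which 88.6% repeated on plate 2, and choosing plates 2 and 3 gave 790 pairs, of which 31.5% repeated on plate 1. Without the 4 cells of low summed FPKM 207 pairs reached 0.5 on all 3 plates, 197 of them among the 249. Without the 15 cells rich in G2/M genes 222 did, 200 of them among the 249.

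The highest pairs shared transcript sequence, and reads from a shared part cannot be told apart. How much of each transcript was alike was not measured for the pairs named in this paragraph. In 40.6% of the 249 pairs the transcripts shared a run of 31 letters, and 3 pairs could not be matched. The top of the list held 0610010B08Rik with Gm14434 (0.994, 0.978 and 0.997), the histone genes Hist1h2ah with Hist1h2ai (0.996, 0.970 and 0.979), and the ferritin light chain genes Ftl1 with Ftl2 (0.979, 0.981 and 0.969). Groups of linked genes of this kind were 7 Hist1h2a genes, 7 MHC class I genes (among them H2-D1, H2-Q1, H2-Q6 and H2-T23), 4 genes around Gm14308, and Chchd2 with Gm6222 and Scand3. Their joint variation is uncertain as biology, since a read from a shared part of 1 gene can be assigned to the other.

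The alpha-tubulin genes Tuba1a, Tuba1b, Tuba1c and Tuba3a were also linked. Over the coding sequence (GENCODE transcripts, build GRCm38) Tuba1a was 98.3% identical to Tuba1b and 97.2% to Tuba1c, with shared runs of 281 and 446 letters. Tuba3a correlated with the other three at 0.742 to 0.915 over the plates. The deposited table places its Tuba3a row on chromosome 12 and the GENCODE gene of that name lies on chromosome 6, so the sequence searched for these pairs is that of another locus than the row and says nothing of their overlap. The same held for 5 of the 154 matched genes of linked pairs (Aldoa, Gm15427, Gm15450, Gm2058 and Tuba3a), which enter 16 of the 249 pairs and 12 of those with no shared run. With runs of 25 letters as the test, 106 of the 249 pairs shared sequence and 140 did not.

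The 145 pairs with no shared run of 31 letters were mainly ribosomal. In 76 of them both genes were ribosomal protein genes, such as Rpl32 with Rps19 (0.665, 0.879 and 0.668) and Rpl32 with Rps27 (0.615, 0.670 and 0.6003). The 145 pairs joined into 4 groups, the largest of 46 genes, 33 of them ribosomal, in which Rpl32 had 26 links and Rps3a 20. Rpl32 ran at medians of 1448, 710 and 854 FPKM and was in every cell. Pairs outside the ribosomal genes were few. Of the 140 pairs without a shared run of 25 letters, 6 held no ribosomal protein gene by name, and these were Smarca5, a chromatin remodeller, with Vmn2r-ps14 (0.703, 0.852 and 0.719), Actb with Myh9, a non-muscle myosin heavy chain (0.561, 0.566 and 0.567), and 4 pairs with predicted genes (Gm5148 with Gm6251, C330021F23Rik with Gm6251, Actb with Gm6251, and Gm15427 with Gm9104, of which Gm15427 is among the genes placed on another chromosome). Below 0.5, Hint1 with Stmn1 repeated evenly at 0.409, 0.420 and 0.402.

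**Figure D4:**
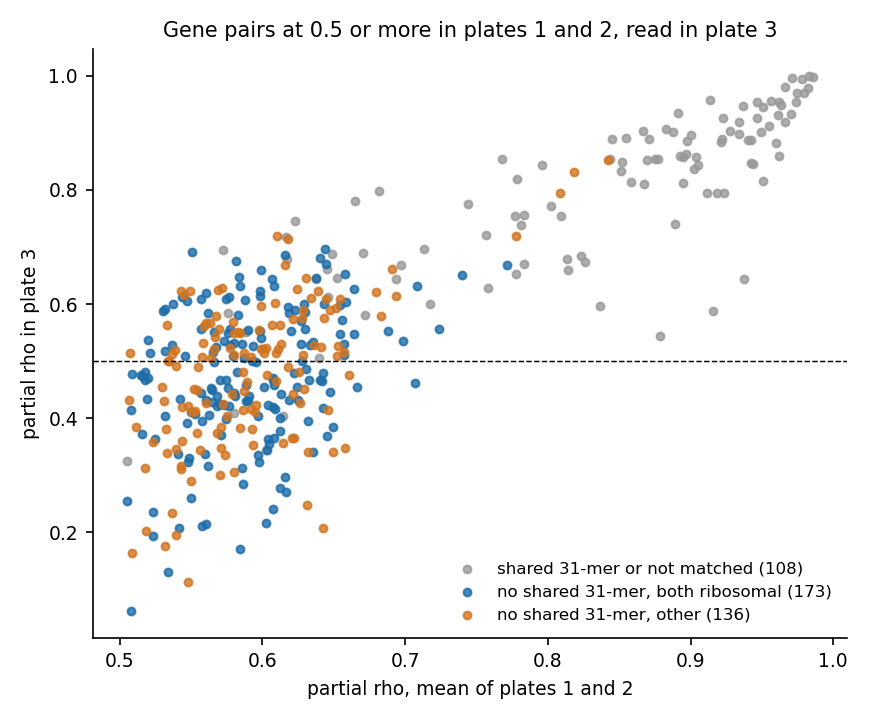
Gene pairs with a partial correlation of 0.5 or more on plates 1 and 2, with their mean over those plates on the horizontal axis and their value on plate 3 on the vertical axis; the dashed line marks 0.5. Pairs with shared sequence (grey) fill the upper right, and pairs without it lie around the line, 145 of 309 above it.

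Lists differed in how far their genes moved together. The median partial correlation within the ribosomal list was 0.318, 0.551 and 0.409 (mean 0.426 ± 0.117, SD, n = 3 plates), and without the 4 cells of low summed FPKM the mean was 0.4002. The S phase list followed at 0.129, 0.326 and 0.096 and the interferon list at 0.102, 0.196 and 0.043. Only members in at least 20% of cells of every plate entered these medians. They were 7 of 24 S phase, 10 of 29 interferon and 24 of 38 HSC program genes, and 0 of 27 G2/M genes. The HSC program stood at 0.037, 0.046 and 0.00034 and oxidative phosphorylation at 0.032, 0.025 and 0.045, close to the medians of all pairs. No HSC program gene was linked to another at 0.5 on all 3 plates.

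After adjustment for the number of genes detected, the largest axis of variation within a plate followed the same ribosomal genes. Before adjustment the first principal component held 5.63%, 8.80% and 5.64% of the variance and tracked the number of genes detected (absolute rho 0.805, 0.899 and 0.826). After adjustment for that number it held 3.75%, 5.17% and 3.33%. A cell's position on it then correlated with its mean level of 83 ribosomal genes at 0.789, 0.818 and 0.860. These genes were among those that entered the component, so this correlation is partly built in. Gene loadings correlated between plates at 0.270, 0.274 and 0.331 across genes, and ranked by the lowest of its 3 loadings Rpl32 led (0.829, 0.869 and 0.757), followed by Gm13611 (0.672, 0.818 and 0.693) and Rps3a (0.686, 0.726 and 0.661).

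The ribosomal mean of a cell, on the log2(FPKM + 1) scale, ran from 2.18 to 8.04 with a median of 6.83 on plate 1, from 2.07 to 7.63 with a median of 6.07 on plate 2 and from 3.54 to 8.02 with a median of 6.18 on plate 3. It moved with the summed FPKM of the library at rho of 0.781, 0.746 and 0.914, and with the number of genes detected at 0.335, 0.390 and 0.365. Without the 4 cells of low summed FPKM the first of these was 0.767, 0.697 and 0.914. The ribosomal mean then ran from 5.47 on plate 1 and from 2.99 on plate 2. The ribosomal genes are themselves part of the summed FPKM, so a positive correlation with it is partly built in. FPKM is scaled within a library, so a cell with a larger share of ribosomal fragments has lower values elsewhere; the part of this scaling in the axis was not tested.

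**Figure D5:**
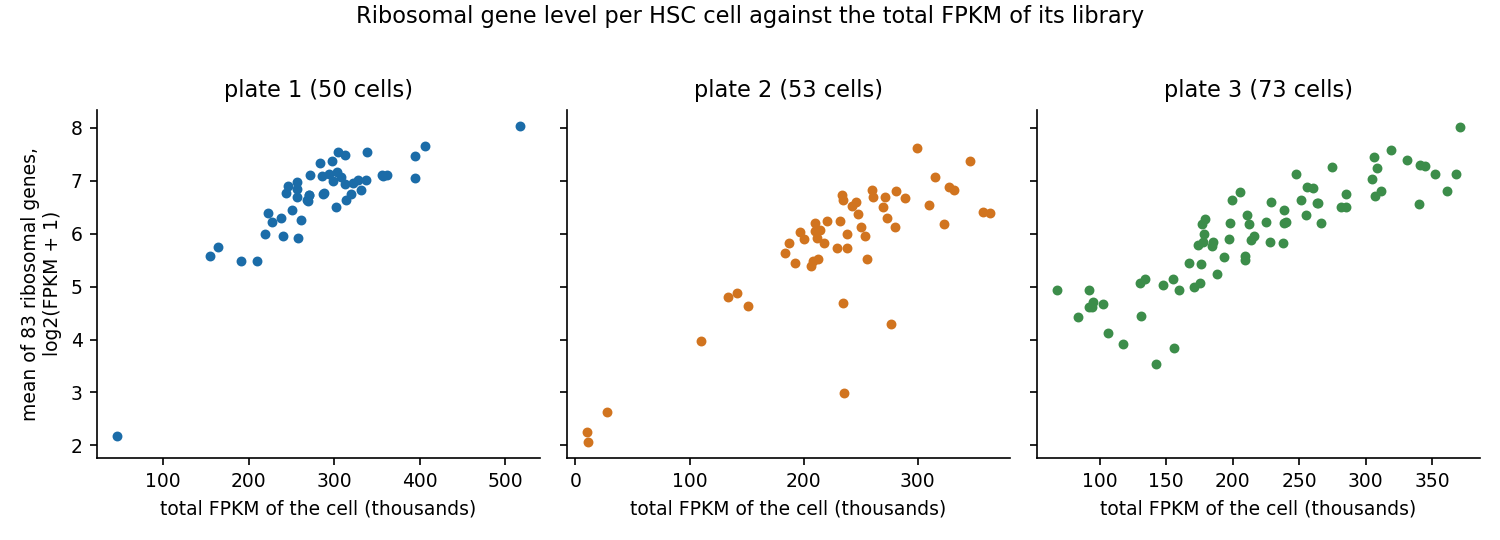
Mean log2(FPKM + 1) of 83 ribosomal protein genes in each cell against the summed FPKM of that cell's library, by plate, with the horizontal axis in units of 1000 FPKM. Both values go together on all 3 plates, where the sum includes the ribosomal genes. The 4 cells with under 50000 summed FPKM lie at the lower left of plates 1 and 2.

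Ribosomal protein genes are known for transcripts that begin with a run of C and T, the 5′ terminal oligopyrimidine tract that couples their translation to growth signals. The starts of 5 genes of the linked group, all with long runs (9 to 18 letters), are shown from RefSeq promoters (build GRCm38.p6). Other genes of the group had runs as short as 2 letters (Rps3) and 3 letters (Rpl41). Each window spans 15 letters to each side of the annotated start. Capitals mark the longest run of C and T that comes within 10 letters of the start.
Rpl35: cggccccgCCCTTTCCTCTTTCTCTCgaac
Rpl14: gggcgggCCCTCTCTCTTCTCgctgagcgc
Rps18: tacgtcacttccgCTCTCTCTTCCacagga
Rps6: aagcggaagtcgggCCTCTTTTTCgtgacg
Rps27: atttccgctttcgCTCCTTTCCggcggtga
These windows are chr2:39005117-39005146 (minus strand) for Rpl35, chr9:120571502-120571531 (plus) for Rpl14, chr17:33955651-33955680 (minus) for Rps18, chr4:86857353-86857382 (minus) for Rps6 and chr3:90213634-90213663 (minus) for Rps27. RefSeq promoters were matched for 23 of the 46 genes of the linked group, 26 promoters in all, and 11 of these, 42.3%, held a run of at least 7 letters of C or T on the gene's strand within 10 letters of the start. The share was 47.1% over 70 promoters of ribosomal protein genes, 21.3% over the 2654 promoters of all genes entered in the pair comparison and 19.7% over all 32851 promoters of the table. A run of letters is a description of the sequence and not a mapped start of transcription.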

How the data were processed

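Single HSC, the wells of the same plates labelled with no cell and those with 2 or more cells were measured by RNA-seq in 3 plates of 96 wells. The authors deposited FPKM values, 1 per gene and well. Per the submitters' processing notes, the tools were TopHat 1.3.3 and Cufflinks 1.2.1 with the build mm9, and for plate 3 also Bowtie2 2.2.1. FPKM is scaled within a library, the plates stand in 2 tables made separately, and a value of 0 can be a failed estimate. Columns of plate 1 could hold either of its 2 sequencing runs, since a repeat run of the same wells carries the same labels. Levels set across plates should be read with that in mind, and comparisons of cells were made within plates.

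A gene was detected at 1 FPKM or more, levels were read as log2(FPKM + 1), and cells needed 1000 genes. The plate was the replicate in every test (n = 3), and correlations over cells are descriptions. Shares of 1-cell and no-cell wells were compared by limma 3.58.1 (trend, empirical Bayes, R 4.3.3) in the genes with a mean share of at least 5%, adjusted by Benjamini-Hochberg over 7286 genes, two-sided, at 0.05. Spread and pairs used the 2828 genes in at least 20% of cells of every plate. Partial Spearman correlations removed the number of genes detected, and a pair was linked at 0.5. Python 3.11.15 with numpy 2.4.6, pandas 2.3.3 and scipy 1.17.1 was used, and scripts were tested on simulated data. Intervals are exact binomial (Clopper-Pearson, 95%) over the cells of a plate, taken as independent, and, like the limit of 3 counts for a count of 0, cover counting error only. Read depth is unknown.

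Named genes were the markers and HSC program, the 15 most variable and 10 steadiest genes, linked groups and top pairs, up to 4 most detected members per list and the nearest genes of each marker. Others are named as singled out after their values were seen. The members and lists were chosen with earlier results of these data known. Some genes and sequences are not reported here. Of 449 list entries 440 matched by symbol, 5 by synonym and 4 not at all. Wells labelled with 2 or more cells and 1-cell wells under 1000 genes were left out of the comparisons. No doublet caller was run, since cell numbers come from the labels.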

Additional observations from a re-analysis of the deposited data

Results flagged for a closer look

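Wells that entered no comparison of the report also held HSC markers, and their shares are given against the no-cell wells of the same plate. The measure is the percentage of wells with at least 2 of Procr, Hlf, Mecom, Meis1 and Fgd5 at 1 FPKM or more. On plate 1 it was 100% of the 16 wells labelled with 2 or more cells, against 66.7% of no-cell wells. On plate 2 it was 10.3% of the 29 wells with 1 cell and under 1000 genes (3 wells) and 50% of the 2 wells with 2 or more cells, against 0% of no-cell wells. On plate 3 it was 28.6% of the 7 wells with 1 cell and under 1000 genes (2 wells) and 100% of the 5 wells with 2 or more cells, against 18.2% of no-cell wells. The 9 wells of plate 1 with 1 cell and under 1000 genes stood at 33.3%, below that plate's no-cell wells. Groups of 2 to 29 wells on 1 plate have no replicate, so none of these differences was tested.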

How the results depend on the processing

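Of 47 alternatives tried on the main results, 35 left them within their limits and 12 moved them. Each was judged by size alone, which could not show a turned direction. For spread and the leading axis, leaving out a plate only returned the value of the remaining pair of plates. The number of genes detected in a larger share of 1-cell wells ranged from 1902 to 5174 when each plate was left out in turn, and was between 4469 and 7499 of those tested under the other alternatives. With the plate as a block it was 6057; 1-cell and no-cell wells of a number share a plate by the labels, but their deviations correlated at 0.185, 0.081 and 0.205, so the block was kept as an alternative, and among the genes named with a p it ended the call of Fos (adjusted p = 0.050, limma). The agreement of excess SD between plates ranged from 0.759 to 0.766 over plates left out, and was 0.713 for genes in at least 10% of cells, 0.798 for genes in at least 50%, 0.730 in cells with 2000 genes and 0.784 at a pseudocount of 0.1. Linked pairs numbered 805 at a correlation of 0.4, 97 at 0.6, 145 without a shared run of 31 letters and 140 without one of 25 letters, the last 2 alternatives being chosen after seeing the data, as were those leaving out cells and the use of all 1-cell wells. The agreement of gene loadings on the leading axis ranged from 0.270 to 0.331. The share of pairs that repeated on the other plate was 20.6% with Pearson correlation. Read depth and the single library per cell limit what a value of 0 can show.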
